A study of Mus with 4 samples.

Results

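Jag1, Jag2, Dll1 and Dll4, which are among the canonical Notch ligands, were examined in RNA sequencing of liver sinusoidal endothelial cells (LSECs). These cells form the porous wall of the liver capillaries. The ligands were taken by gene identifier as members of a family, with no threshold on a measured value. They are 4 of the 54532 genes in the deposited count table, and all 4 had enough reads to be tested. Per the labels and title of the series, 2 libraries came from mice that lacked Pofut1 in the endothelium (P1KO) and 2 from control mice (CTL). All mice, controls included, had received the liver toxin carbon tetrachloride (CCl4). The P1KO libraries are called KO1 and KO3 and the CTL libraries CTL1 and CTL2, as in the column names of the table. The labels used here give neither the promoter that drives the deletion nor the strain, age or sex of the mice, and they do not say whether mice were pooled.

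Notch signalling passes between touching cells. A ligand of the Jagged or Delta-like family, itself a membrane protein with a chain of EGF-like repeats, binds a Notch receptor on the neighbouring cell. Internalisation of the ligand pulls on the receptor, which is then cut by ADAM10 and gamma-secretase, and the freed intracellular part enters the nucleus and acts with RBPJ on target genes such as those of the Hes and Hey families. POFUT1 puts the first sugar, an O-linked fucose, on EGF-like repeats of Notch receptors. Fringe enzymes extend that fucose and shift the preference of a receptor between Delta-like and Jagged ligands. In endothelium, Dll4 restrains sprouting and is high in arterial cells and at the tips of growing vessels, whereas Jag1 can oppose Dll4 at sprouts. In the developing liver, Jag1 next to the portal vein guides bile duct formation, and in humans its loss causes Alagille syndrome. The series asks how endothelial POFUT1 acts on LSECs and on hepatic stellate cells, which lay down matrix when the liver is injured.

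The libraries were almost equally deep, with 17464769 to 17918834 counted reads each. The libraries of a group differed from each other more in P1KO, with a biological coefficient of variation of 12.1%, than in CTL, with 3.23%. The tests therefore lean on the closeness of the CTL pair. Whether each library stands for a mouse of its own is not in the labels. The p-values set the difference between the groups against the spread of these libraries only, and that spread may be technical. The tissue labels name liver and LSECs, whereas the extraction protocol names heart ventricles. The table gives gene identifiers without symbols, so the markers of LSECs, of other liver cells and of heart muscle, the deleted gene and the other Notch pathway genes are not analysed here. Cell identity was not checked.

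Dll1 and Dll4 changed in opposite directions in the libraries labelled P1KO. Dll1 was higher in P1KO by 1.496-fold and Dll4 was lower, at 0.751-fold the CTL level, while Jag1 and Jag2 did not pass the test. Thus 2 of the 4 ligands were called, 1 in each direction, at a Benjamini-Hochberg adjusted p below 0.05 in edgeR's quasi-likelihood test. Over all 15510 genes tested, 19.5% were called, with 9.68% higher and 9.84% lower in P1KO, and the median log2 fold change was -0.01. The median over the 4 ligands was 0.05. Both calls depended on having both CTL libraries as separate samples, since neither ligand passed without CTL1 or without CTL2, although the size and direction of the changes stayed close.

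**Figure D1:**
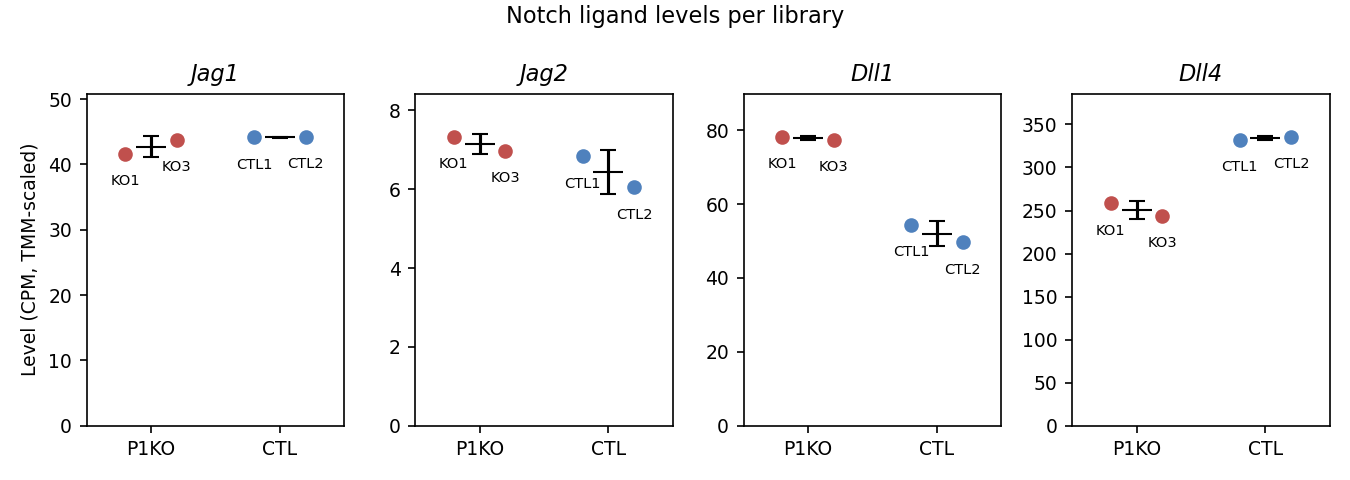
Level of each ligand in CPM scaled with TMM (y axes, from 0 and different for each ligand) in the P1KO libraries KO1 and KO3 and the CTL libraries CTL1 and CTL2; points are libraries, and black bars give the mean ± SD (n = 2 per group). Dll1 lies higher and Dll4 lower in both P1KO libraries, while the Jag1 and Jag2 groups lie close together.

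Dll4 is the Delta-like ligand best known from arterial and sprouting endothelium. Its identifier is ENSMUSG00000027314, and RefSeq places the gene on chromosome 2 from 119325784 to 119335666 (GRCm38.p6). It had 4547 reads in KO1 and 4336 in KO3, against 5837 in CTL1 and 5995 in CTL2. Levels are given as CPM, counts per 1000000 reads after TMM scaling of the libraries. They were 258 CPM in KO1 and 244 CPM in KO3, against 332 CPM in CTL1 and 336 CPM in CTL2. Both P1KO libraries lay below both CTL libraries, and the distance between the groups was larger than the distance within either. A lack of overlap between the groups was also seen for 62.6% of all genes tested. The means were 251 ± 10.4 CPM in P1KO and 334 ± 2.27 CPM in CTL (SD, n = 2 each). The log2 fold change was -0.41 ± 0.06 (SE), with a 95% interval of -0.54 to -0.28 and an edgeR adjusted p of 0.00272. Dll4 was thus 24.9% lower in P1KO. In bulk RNA, fewer cells of a type and less RNA per cell cannot be told apart, here or for the other ligands.

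Each P1KO library gave a Dll4 ratio below 1 to each CTL library, which restates that the groups did not overlap. The pairs reuse the same libraries and are not separate evidence. KO1 had 0.777 of the CTL1 level, with a 95% interval of 0.747 to 0.808, and 0.770 of the CTL2 level. KO3 had 0.733 of the CTL1 level and 0.726 of the CTL2 level, with an interval of 0.698 to 0.755 for the last. These intervals are exact binomial ones and cover counting error only. The P1KO libraries also differed from each other by more than counting error, with KO3 at 0.943 of KO1 and an interval of 0.904 to 0.983. The CTL libraries did not, with CTL2 at 1.01 of CTL1 and an interval of 0.974 to 1.05.

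In RefSeq the Dll4 gene overlaps Gm14207, a long non-coding RNA gene at chromosome 2 from 119321199 to 119326197, by 414 bases. Whether reads in the overlap were counted for Dll4, for Gm14207 or for neither is not known, because the strand setting of the counting is not given in the sources used here. The share of Dll4 reads from that stretch was not tested.

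Dll1 is another Delta-like ligand, which in mice is needed in arterial endothelium as well as in the segmentation of the embryo. Its identifier is ENSMUSG00000014773, on chromosome 17 from 15367354 to 15376932. It had 1376 reads in KO1 and 1378 in KO3, against 955 in CTL1 and 886 in CTL2. The levels were 78.2 CPM in KO1 and 77.4 CPM in KO3, against 54.4 CPM in CTL1 and 49.6 CPM in CTL2. Both P1KO libraries lay above both CTL libraries and almost at the same level. Groups that did not overlap were found for 62.6% of all genes tested. The means were 77.8 ± 0.544 CPM in P1KO and 52.0 ± 3.38 CPM in CTL (SD, n = 2 each). The log2 fold change was 0.58 ± 0.07 (SE), a 1.496-fold higher level in P1KO with a 95% interval of 1.34-fold to 1.67-fold, and the edgeR adjusted p was 0.00168.

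Dll1 was higher in P1KO in every pair of libraries across the groups, which again restates the lack of overlap. These pairs, too, reuse the same libraries. The ratios ran from 1.42, for KO3 over CTL1, to 1.58, for KO1 over CTL2. The lowest of the 4 counting intervals began at 1.31. Within P1KO, KO3 stood at 0.990 of KO1, with an interval of 0.918 to 1.07. Within CTL, CTL2 stood at 0.912 of CTL1, and the interval of 0.831 to 1.0004 reached just past equality. For Dll1 the larger difference within a group was therefore that of the CTL pair, unlike Dll4, for which it was that of the P1KO pair.

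Jag1, the Jagged ligand known for its part in bile duct formation, showed no difference that passed the test. Its identifier is ENSMUSG00000027276, on chromosome 2 from 137081451 to 137116520. It had 732 reads in KO1 and 780 in KO3, against 775 in CTL1 and 790 in CTL2. The levels were 41.6 CPM in KO1 and 43.8 CPM in KO3, against 44.1 CPM in CTL1 and 44.2 CPM in CTL2. KO1 was the lowest library, and KO3 was close to the CTL pair. The log2 fold change was -0.05 ± 0.07 (SE) with an edgeR adjusted p of 0.675. Its 95% interval ran from 0.862-fold to 1.08-fold, so that a fall of the size of Dll4 or a rise of the size of Dll1 lies outside it.

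Jag2, the other Jagged ligand, had the fewest reads of the 4 and the widest error. Its identifier is ENSMUSG00000002799, on chromosome 12 from 112907803 to 112929812. It had 129 reads in KO1 and 124 in KO3, against 120 in CTL1 and 108 in CTL2. The levels were 7.33 CPM in KO1 and 6.97 CPM in KO3, against 6.83 CPM in CTL1 and 6.05 CPM in CTL2. The P1KO libraries were slightly above both CTL libraries, by less than the counting error of these reads. Summed over the libraries, the level in P1KO was 1.11 times that in CTL, with an exact binomial interval of 0.925 to 1.33. The log2 fold change was 0.15 ± 0.17 (SE) with an edgeR adjusted p of 0.582. Its 95% interval ran from 0.845-fold to 1.46-fold, which includes no change and is the widest of the 4. In RefSeq, Mir6941 lies within the span of Jag2, over 59 bases.

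For each of the 4 ligands the P1KO and CTL libraries did not overlap, which was also true of 62.6% of all genes tested. Read against that share, the lack of overlap is no result about any of the 4 ligands. By size of change, 18.2% of the genes tested changed more than Dll1 on the log2 scale in either direction, 27.6% more than Dll4, 62.2% more than Jag2 and 86.6% more than Jag1. Taking the sign into account, 94.0% of the genes tested had a lower log2 fold change than Dll1, and 17.5% a lower one than Dll4. Dll1 and Dll4 were thus called with changes of moderate size among these genes. By p-value they ranked 407 and 584 among the 15510.

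**Figure D2:**
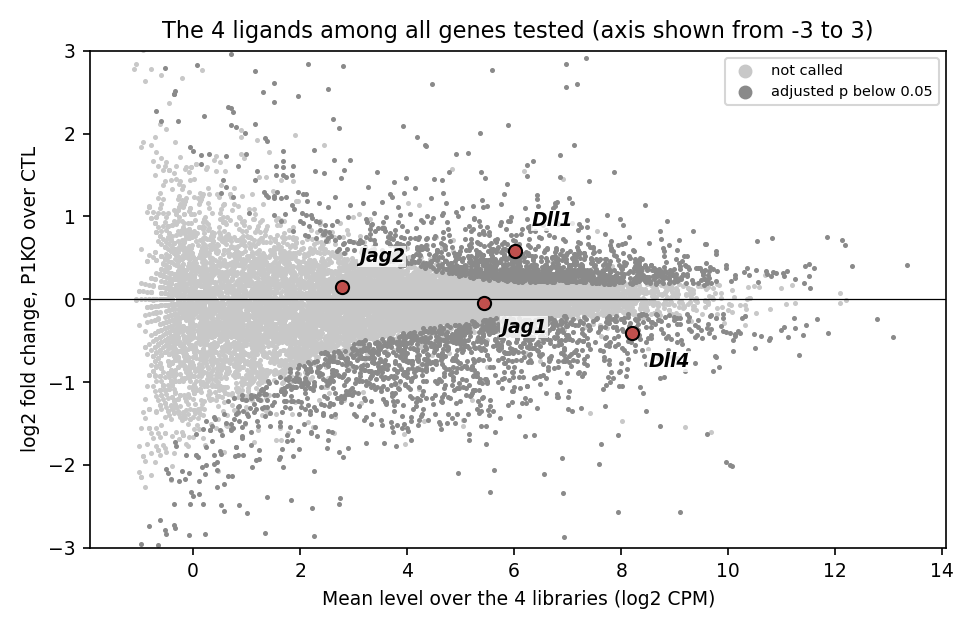
Log2 fold change of P1KO over CTL (y axis, the middle of the range shown) against the mean level over the 4 libraries in log2 CPM (x axis) for all genes tested; light grey points did not pass, dark grey points had an adjusted p below 0.05 in edgeR, and red points are the ligands. Dll1 at 0.58 lies among the called genes above 0, Dll4 at -0.41 among those below, and Jag1 and Jag2 lie among the genes that did not pass.

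The make-up of the ligand reads moved with these changes. The 4 ligands together had 6784 reads in KO1 and 6618 in KO3, against 7687 in CTL1 and 7779 in CTL2. Of these reads, Dll4 held 67.0% in KO1 and 65.5% in KO3, against 75.9% in CTL1 and 77.1% in CTL2. The highest P1KO interval ended at 68.1% and the lowest CTL interval began at 75.0% (exact binomial, counting error only). Dll1 held 20.3% in KO1 and 20.8% in KO3, against 12.4% in CTL1 and 11.4% in CTL2, and these intervals did not overlap between the groups either. Jag1 held 10.8% in KO1 and 11.8% in KO3, against 10.1% in CTL1 and 10.2% in CTL2. Jag2 stayed between 1.39% and 1.90% in all libraries. A longer transcript yields more reads, and transcript lengths were not used here, so the shares compare libraries and say nothing of which ligand was the more abundant.

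**Figure D3:**
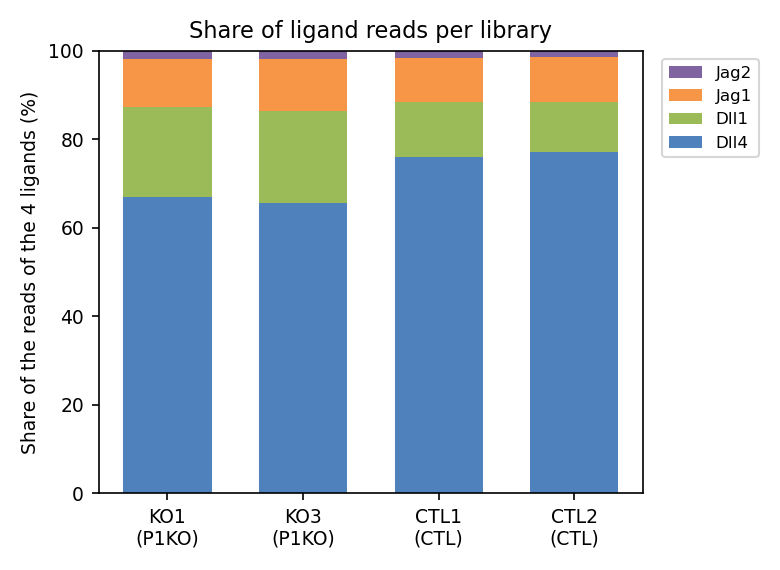
Share of the reads of the 4 ligands (y axis, in %) held by each ligand in the P1KO libraries KO1 and KO3 and the CTL libraries CTL1 and CTL2. The Dll4 part is smaller and the Dll1 part larger in both P1KO libraries, at 67.0% and 65.5% for Dll4 in P1KO against 75.9% and 77.1% in CTL.

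The ratio of Dll4 to Dll1 reads within a library depends on no scaling of the libraries. It was 3.30 in KO1 and 3.15 in KO3, against 6.11 in CTL1 and 6.77 in CTL2. Both P1KO libraries stood at about the same ratio, and it was 0.501 times that of CTL in the means of the logs. From the summed reads the factor was 0.502, with a 95% Wald interval of 0.470 to 0.536 for counting error. Both factors restate the changes of Dll1 and Dll4 given above and are no separate evidence. Against Jag1, the Dll4 reads stood at 6.21 in KO1 and 5.56 in KO3, against 7.53 in CTL1 and 7.59 in CTL2. The Dll1 reads stood at 1.88 times those of Jag1 in KO1 and 1.77 in KO3, against 1.23 in CTL1 and 1.12 in CTL2. Of the 6 ratios between ligands, Jag2 over Jag1 was the only one whose counting interval for the factor, 0.947 to 1.39, included 1. Every other ratio holds Dll1 or Dll4 and so repeats the changes of these ligands. The counting intervals leave out the spread between libraries of a group. For these 6 ratios the exact two-sided permutation test over libraries gave p = 0.333 each, the smallest value that 2 against 2 libraries allow, so it cannot reach 0.05.

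The summed level of the ligands was lower in P1KO. It was 385 CPM in KO1 and 372 CPM in KO3, against 438 CPM in CTL1 and 436 CPM in CTL2. The means were 379 ± 9.67 CPM in P1KO and 437 ± 1.60 CPM in CTL (SD, n = 2 each), 13.3% lower in P1KO. The exact permutation test again gave its smallest possible p of 0.333. The sum is made up mostly of Dll4 reads and follows that gene.

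The patterns of the ligands over the libraries were not alike. Likeness was measured as the distance between 2 genes in log2 CPM, each centred on its own mean over the 4 libraries, among genes with a mean of at least 5 CPM. Only the ligands themselves carry a symbol here, so each was compared with the other 3. Jag1 and Jag2 were the nearest pair, at 0.26, and Dll1 and Dll4 the farthest, at 1.001. Yet 51.0% of the genes compared were closer to Jag1 than Jag2 was, and 42.8% closer to Jag2 than Jag1 was. Of the 10979 other genes compared, 95.0% were closer to Dll4 than Dll1 was. The nearest ligand to Dll4 was Jag1, at 0.38, with 30.9% of genes closer, and the nearest to Dll1 was Jag2, at 0.43, with 22.2% closer. These distances describe 4 libraries and carry no test.

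The direction of each ligand was the same in the 12 other settings that were run, while the calls of Dll1 and Dll4 depended on the CTL libraries. Since the groups did not overlap for any ligand, leaving out or summing libraries could hardly reverse a direction. The other settings refit the same libraries, so the kept direction is no separate support. Without CTL1, the log2 fold change of Dll1 was 0.64 with an edgeR adjusted p of 0.061, and that of Dll4 was -0.42 with an adjusted p of 0.116. Without CTL2, the values were 0.51 (edgeR adjusted p = 0.0882) for Dll1 and -0.41 (edgeR adjusted p = 0.122) for Dll4. With both CTL libraries summed to 1, they were 0.58 (edgeR adjusted p = 0.067) and -0.42 (edgeR adjusted p = 0.117). In these fits the spread came from the P1KO pair alone, and 129, 120 and 152 genes passed in all. Over all settings the adjusted p ranged from 1.41e-16 to 0.0882 for Dll1 and from 7.17e-34 to 0.122 for Dll4. The smallest of these come from the fits without KO1 or KO3, in which only the CTL pair sets the spread. DESeq2, limma-voom and a limma-voom fit with a spread per group called both ligands. That spread was a single weight per group over all genes, not a spread of each ligand.

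**Figure D4:**
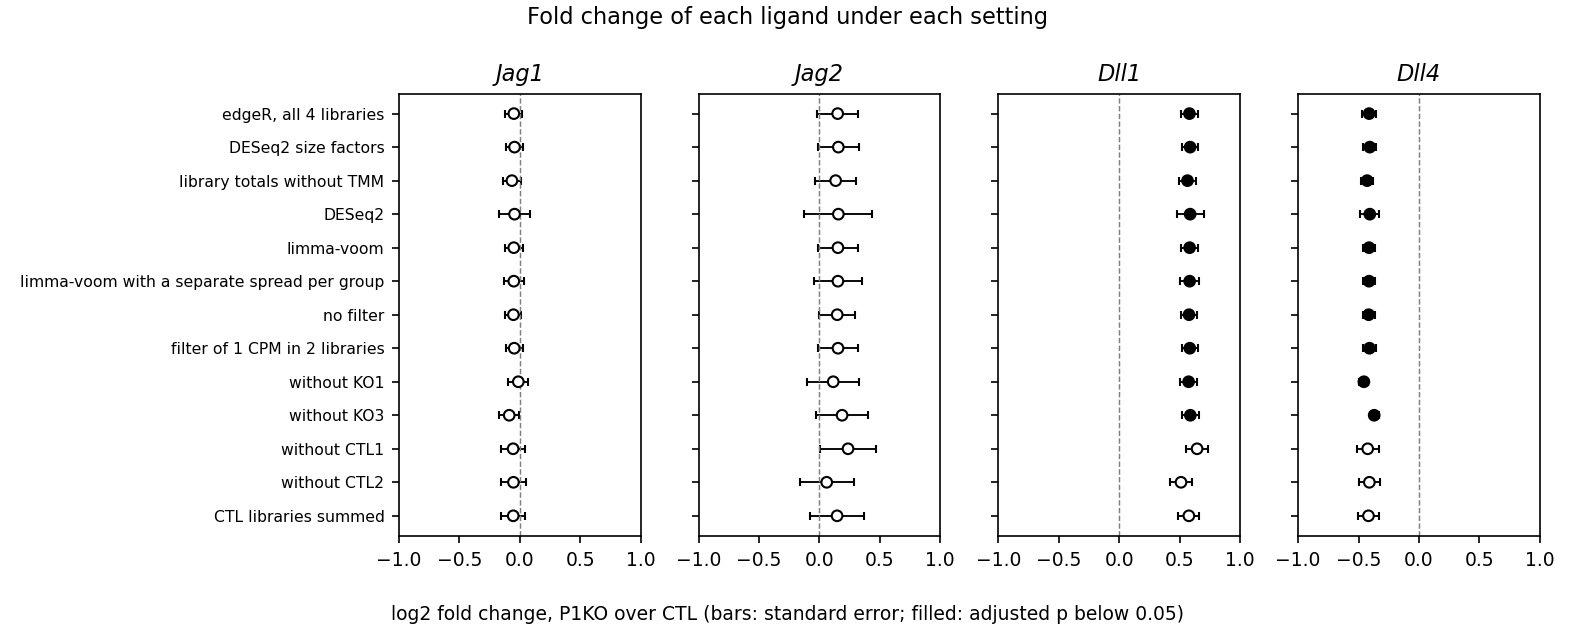
Log2 fold change of P1KO over CTL (x axes) of each ligand under each setting (y axis), with bars for the standard error; filled points had an adjusted p below 0.05 and open points did not. Dll1 stays between 0.51 and 0.64 and Dll4 between -0.46 and -0.37, and their points are open without CTL1, without CTL2 and with the CTL libraries summed, whereas all points of Jag1 and Jag2 are open.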

How the data were processed

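The authors deposited raw read counts per Ensembl gene for the series, with 54532 identifiers and 4 columns; 0 columns were left out. The submitters' processing notes name build mm10, HISAT2 2.0.5, featureCounts 1.5.0-p3, fastp and CASAVA, without saying what each did. The annotation release and the strand setting were not given in the sources used here. The number of column KO3 matches no sample title, so it was placed by its name in the P1KO group only. The table holds no symbols and the RefSeq gene table (GRCm38.p6) no Ensembl identifiers, so 0 identifiers were matched. The symbols of the 4 ligands came with the list of members and could not be checked against that table, and loci were looked up by symbol. Lists of pathway genes and cell markers could therefore not be read. The ligands were taken as members of a gene family by identifier, with no threshold on a value. Yet they, the lists and the settings were chosen with earlier results of these data known, so the choice was not independent of the data.

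Counts were filtered with filterByExpr (15510 genes left), scaled with TMM and tested with edgeR 4.0.16 (glmQLFTest, no covariate) in R 4.3.3, P1KO against CTL over all 4 libraries. P-values were adjusted by Benjamini-Hochberg over all genes tested. Standard errors are the absolute log2 fold change divided by the square root of F. The script was tested on simulated data in which both groups had the same spread, unlike these libraries. Alternatives were DESeq2 size factors, library totals, DESeq2 1.42.0 and limma-voom (limma 3.58.1). The limma-voom fit was also run with a spread per group, as a single weight per group over all genes. Others were no filter, at least 1 CPM in 2 libraries, each library left out, and the CTL libraries summed. The last 2 kept the same 15510 genes. The named genes were the 4 ligands, and for likeness each was compared by name with the other ligands only. The distances used a prior count of 2. Intervals of reads cover counting error only.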

Additional observations from a re-analysis of the deposited data

How the results depend on the processing

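Jag1 and Jag2 kept their direction and did not pass in any of the 12 settings. A kept direction, of a ligand or of their sum, is no separate support. The groups did not overlap, and every setting used the same libraries. Dll1 and Dll4 kept their direction in all 12 and passed in 9. With the CTL libraries summed, 0 ligands passed, Dll1 at 0.58 and Dll4 at -0.42 (log2), and 152 genes passed in all, with the spread taken from the P1KO pair alone. Leaving out 1 library in turn gave 0 to 2 ligands called, log2 fold changes of 0.51 to 0.64 for Dll1 and -0.46 to -0.37 for Dll4, and 120 to 5391 genes called. Calls were lost without CTL1 and without CTL2 only. The remaining single library was assumed to vary as the other group did. With no filter, 1633 genes passed, with the same 2 ligands. The summed ligand level stayed lower in P1KO, with a difference (P1KO minus CTL) of -64.9 to -51.2 CPM in its 6 settings. The sum of reads per kb of transcript was not run, for lack of transcript lengths. No paired analysis was possible because, although the titles number both groups 1 and 2, the column KO3 carries neither number, so which CTL column it would pair with is not known. Jag2 had the fewest reads, 108 to 129 per library, and the largest standard error.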
